A study of Mus musculus with 10 samples.

Results

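The ephrins, semaphorins and their receptors are guidance genes, and 50 of them were followed here through quiescence, activation and reactivation of mouse neural stem and progenitor cells (NSPCs). The members are the protein-coding autosomal genes of GENCODE M21 whose symbols begin with Epha, Ephb, Efna, Efnb, Sema, Plxna, Plxnb, Plxnc or Plxnd and a number, together with Nrp1 and Nrp2. The rule took 50 of 20807 protein-coding autosomal genes, and no measured value entered it. Of 56 genes with matching symbols, 3 lie on the X chromosome (Efnb1, Plxna3 and Plxnb3) and 3 do not code for protein, and these 6 were not analysed here. The members are 5 ephrin-A ligands, 2 ephrin-B ligands, 9 EphA receptors, 5 EphB receptors, 7 secreted class 3 semaphorins, 13 membrane-bound semaphorins, 2 neuropilins and 7 plexins.

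Ephrins are held on the cell surface, the A type by a lipid anchor and the B type by a membrane-spanning segment, and they bind Eph receptor tyrosine kinases on touching cells, so that signals can run in both directions. Semaphorins act mostly through plexins, which control small GTPases and with them the cytoskeleton, and most class 3 semaphorins need a neuropilin as co-receptor. In the brain these families steer axons and migrating cells, and Eph and ephrin signals are known to act on the proliferation and the placing of neural stem cells and their progeny.

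The study used NSPCs cultured from C57BL/6 mice at postnatal day 5, a mixture of stem and progenitor cells, to ask how chromatin changes between quiescence and activation. Activated NSPCs were grown with 20 ng/ml of FGF2 and 20 ng/ml of EGF. Quiescent NSPCs had FGF2 at 20 ng/ml, no EGF, and BMP4, a bone morphogenetic protein that halts their cycling, at 25 ng/ml, for 4 days by the sample labels, although the methods give a shorter time before ATAC-seq. Reactivated NSPCs came out of 4 days of BMP4 and then spent 9 to 12 days with FGF2 and EGF, so they also differ from activated NSPCs in their time in culture. ATAC-seq, in which a transposase cuts open chromatin, was done on 2 libraries of each of these 3 states. ChIP-seq for H3K4me3, a histone mark of active and poised promoters, was done on 1 library of quiescent and 1 of activated NSPCs. The methods call the ATAC-seq replicates biologically independent.

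The data are peak lists, 1 per library, with the fold enrichment of each peak over the background of its own library. A promoter was 1 kb on each side of any annotated transcription start site (TSS), and the window of a gene was its body and 20 kb on each side. The value of a promoter was that of its strongest peak, which can lie at different transcript starts in different libraries. The quiescent and activated ATAC-seq lists held 47323 to 60881 peaks, and the reactivated lists held 106586 and 107137. The background pileup implied by the lists was 12.1 in quiescent replicate 2 and 6.01 to 6.61 in the other 5 libraries, and that of the reactivated libraries, 6.5 and 6.52, is within this range. Where a pair of values is given for a state, the first is from replicate 1 and the second from replicate 2. A peak is called or not called, and a site with no peak may still have reads below the lowest pileup called, which was 16 to 25. Fewer cells with an open site and less opening in each cell cannot be told apart in these cultures. All 6 NSPC markers checked had a promoter ATAC-seq peak in both quiescent and both reactivated libraries, and 5 of 6 did in activated NSPCs, where the astroglial glutamate transporter gene Slc1a3 had none. Of 5 microglial markers, 0 had one in both quiescent libraries and 1, P2ry12, had one in both activated and both reactivated libraries. The endothelial markers likewise gave 0 of 5 and then 1 of 5, Kdr. Of the oligodendrocyte lineage markers, 4 of 5 had a promoter peak in every state, with Sox10 at none, and of 4 autosomal neuronal markers 3 had one in quiescent and activated NSPCs and 4 in reactivated NSPCs.

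Most guidance genes had an open promoter in every state. A promoter peak was found in both libraries for 40 of 50 members in quiescent NSPCs (56.9% of all genes), for 39 of 50 in activated NSPCs (57.3% of all genes) and for 49 of 50 in reactivated NSPCs (66.4% of all genes). All 6 lists had one at 36 members (54.5% of all genes), and 0 members lacked a peak in every list, against 30% of all genes. The exact 95% interval of the quiescent share, 80.0%, ran from 66.3% to 89.97%. This interval, like the others below, is a Clopper-Pearson interval over members or sites and covers counting error only. Under the alternative settings that follow, only the members were counted, so the shares of all genes above are no measure for them. When all 6 lists were limited to the length of the shortest, the counts were 36, 39 and 40 for the quiescent, activated and reactivated states. With a minimum −log10 q of 10, 26 members had a promoter peak in both quiescent libraries. With the outermost 5′ end of each gene as its only start, the counts were 32, 34 and 46 for the 3 states. A gene with many annotated starts, such as Sema4a with 17, has more promoter windows than a gene with few. Over members with a promoter peak, the median percentile of fold enrichment within the list was 63.8 and 69.1 in quiescent NSPCs, against 76.7 and 64.9 in activated and 76.7 and 82.3 in reactivated NSPCs, whereas over all genes with one it ran from 82.3 to 88.8.

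**Figure D1:**
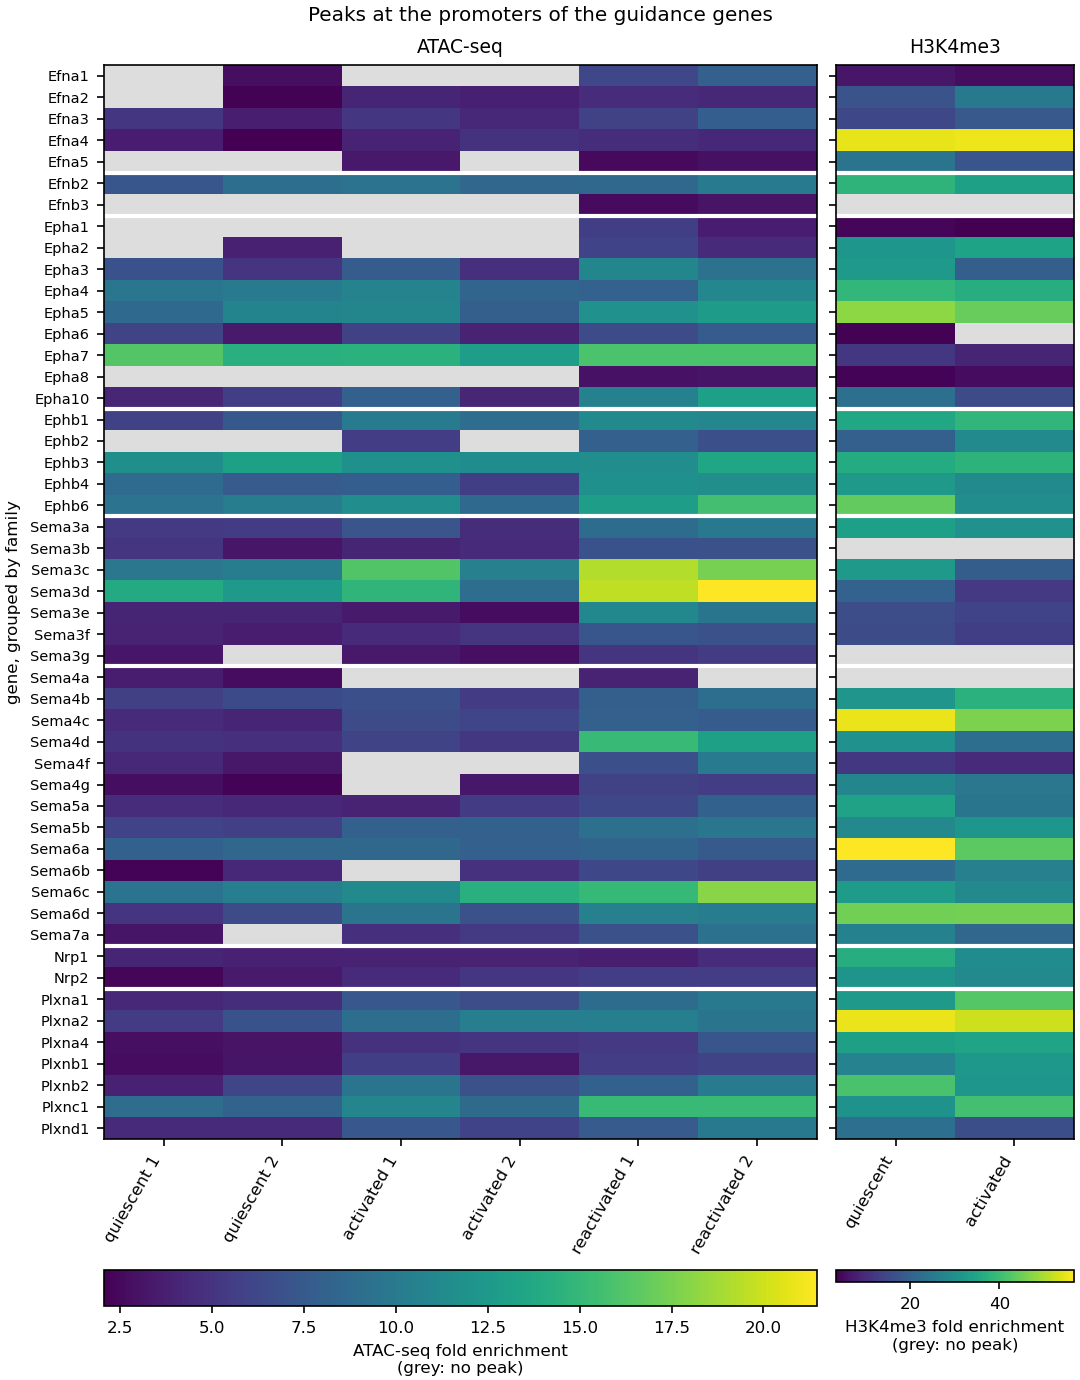
Fold enrichment, as deposited, of the strongest ATAC-seq peak (left, 6 libraries) and H3K4me3 peak (right, 1 library per state) within 1 kb of a TSS of each of the 50 members, with white lines between families and grey for no peak. Grey cells stand mostly in the quiescent and activated columns, where 36 members had an ATAC-seq peak in all 4 lists, and 4 genes are grey in both H3K4me3 columns.

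Among the ligands of the Eph system, Efna4 and Efna3 had a promoter peak in all 6 lists. Efna4 had fold enrichments of 3.54 and 2.06 in quiescent NSPCs, against 4.03 and 4.93 in activated and 4.57 and 4.24 in reactivated NSPCs. Efna3, Efna4 and Efna1 lie close together on chromosome 3, and 6 sites fell in the windows of both Efna3 and Efna4. Efna5 had no promoter peak in either quiescent library, a value of 3.38 in activated replicate 1, none in replicate 2, and values of 2.53 and 2.92 in the reactivated libraries. Efna1 had a quiescent peak in replicate 2 alone, at 2.75, no activated peak, and reactivated values of 6.16 and 7.98. Efnb2, the transmembrane ligand of EphB receptors and of EphA4, was open throughout, at 7.25 and 9.06 in quiescent NSPCs, against 9.44 and 8.44 in activated and 8.53 and 10.1 in reactivated NSPCs. The values of the 3 states overlap for Efnb2 as deposited. After quantile scaling, the test of strength described further on called this promoter weaker in reactivated than in activated NSPCs (log2 difference −0.61 ± 0.18, SE, limma adjusted p = 0.0493) and than in quiescent NSPCs (−0.62 ± 0.18, adjusted p = 0.0308), whereas without scaling the differences were 0.06 and 0.20 and were not called.

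The promoter of Efnb3, another transmembrane ephrin, had a peak in the reactivated libraries alone, at 2.62 and 3.06. The receptor genes Epha1 and Epha8 shared that pattern, with 5.66 and 3.59 at Epha1 and 2.97 and 3.15 at Epha8. These 3 of 50 members stand beside 3.57% of all genes with a peak in both reactivated lists and in no other list. The highest receptor promoter was that of Epha7, with 16.3 and 14.3 in quiescent NSPCs, against 14.4 and 13.0 in activated and 15.98 and 15.95 in reactivated NSPCs. Epha2, an ephrin-A receptor gene, had a quiescent peak in replicate 2 alone, at 3.82, no activated peak, and reactivated values of 5.96 and 4.34. Ephb2 had 1 peak before reactivation, at 5.57 in activated replicate 1, and 7.99 and 6.83 in reactivated replicates 1 and 2. Ephb3 had between 11.5 and 13.4 in all 6 libraries, with the strongest reactivated peaks at another transcript start than the others. Its site at the 5′ end was called weaker in reactivated than in activated (log2 difference −0.58 ± 0.16, limma adjusted p = 0.0446) and quiescent NSPCs (−0.74 ± 0.16, adjusted p = 0.0125) after quantile scaling, and in neither contrast without it.

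Among the class 3 semaphorins, which are secreted, Sema3d and Sema3c had the highest promoter values, the 2 highest of all members in reactivated replicate 1. Sema3d had 13.9 and 12.5 in quiescent NSPCs, against 14.7 and 9.03 in activated and 19.6 and 21.4 in reactivated NSPCs. Sema3c had 9.71 and 10.2 in quiescent NSPCs, against 16.2 and 10.5 in activated and 19.2 and 17.5 in reactivated NSPCs. For both genes the reactivated values of the strongest peak lie above the other 4, as they did at 26 of the 36 members with a promoter peak in all 6 lists (75.4% of all such promoters). A weaker promoter site of Sema3c, with 4.36 and 3.21 in quiescent libraries, 3.91 and 3.96 in activated and 2.94 and 4.59 in reactivated ones, was called lower in reactivated than quiescent NSPCs after quantile scaling (log2 difference −0.68 ± 0.20, limma adjusted p = 0.0359) and differed by −0.03 without scaling (adjusted p = 0.927). Sema3e, whose protein binds plexin D1 without a neuropilin, had 4.08 and 4.05 in quiescent NSPCs, against 3.45 and 2.71 in activated and 11.1 and 9.58 in reactivated NSPCs.

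The quiescent-specific promoters, open in both quiescent libraries and in neither activated one, belonged to Sema4a and Sema4f, both membrane-bound class 4 semaphorins. These are 2 of 50 members, beside 0.779% of all genes. Sema4f had 4.27 and 3.33 in quiescent replicates 1 and 2, no activated peak, and 6.80 and 10 in the reactivated replicates. Sema4a had 3.52 and 2.67 in quiescent replicates 1 and 2, no activated peak, and 4.00 in reactivated replicate 1 alone. The quiescent peaks of Sema4a lay at 2 different transcript starts, 1 in each library, so that neither formed a quiescent-specific site. An activated-specific promoter was found for 0 of 50 members (0.947% of all genes). Of 36 promoters with a peak in all 4 quiescent and activated lists, 8 had a higher percentile in both activated libraries (15.8% of all such promoters) and 7 in both quiescent libraries (26.1%). On fold enrichment as deposited, which is not scaled between libraries, 16 of the 36 were higher in both activated libraries (35.5% of all such promoters) and 1, that of Sema3e, in both quiescent libraries (7.44%). The balance of the 2 directions thus depends on the scale.

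The receptors of semaphorins were open in all states. All 7 plexins and both neuropilins had a promoter peak in all 6 lists (54.5% of all genes). Plxnc1, the receptor of Sema7a, had 9.01 and 8.25 in quiescent NSPCs, against 10.9 and 8.78 in activated and 15.2 in both reactivated libraries. Its quiescent and activated values overlap. For each of the other plexins and Nrp2, both activated libraries lay above both quiescent ones as deposited. At Plxna1 the quiescent values were 4.21 and 4.57, and the activated ones 7.31 and 6.64. By percentile this held for Plxna1, Plxna2, Plxna4 and Plxnd1, but not for Plxnb1, Plxnb2 and Nrp2. The test of strength described further on called none of these promoters between activated and quiescent NSPCs. Nrp1, a co-receptor of class 3 semaphorins and of vascular endothelial growth factor, had 4.07 and 3.85 in quiescent NSPCs, against 4.01 and 3.99 in activated and 3.70 and 4.51 in reactivated NSPCs. These values of Nrp1 overlap between all states, and the reactivated ones come from another promoter site than the quiescent and activated ones. At the site with a peak in all 6 lists the reactivated values were 3.001 and 3.56, below the other 4, and after quantile scaling it was called weaker in reactivated than in activated (log2 difference −0.67 ± 0.17, limma adjusted p = 0.0309) and quiescent NSPCs (−0.88 ± 0.17, adjusted p = 0.00722), but in neither contrast without scaling.

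H3K4me3 marked nearly all of these promoters in both states. A promoter peak was found at 46 of 50 members in quiescent NSPCs (62.3% of all genes) and at 45 of 50 in activated NSPCs (61.1% of all genes). With 1 library per state, these are values of those libraries and have no test. Sema3b, Sema3g, Sema4a and Efnb3 had no H3K4me3 peak at the promoter in either state. Of these, Sema3b had an ATAC-seq promoter peak in all 6 lists, between 3.21 and 6.92. Epha6, the longest member gene at 952 kb, had H3K4me3 in quiescent NSPCs alone, at a fold enrichment of 3.72, near the weak end of the member values. It is 1 of 50 members, beside 1.36% of all genes with the mark in the quiescent library alone. The mark was present in the activated library alone at 0 members (0.12% of all genes). A change of more than 2-fold, taken as a log2 ratio beyond 1 on either side of the median ratio of all promoters, was found at 0 of 45 members marked in both (0.158% of all such promoters higher and 0.15% lower in activated NSPCs). Epha1 and Epha8 had H3K4me3 in both states without an ATAC-seq peak in any quiescent or activated list, 2 of 45 members beside 3.91% of all such promoters. Their H3K4me3 peaks were weak too, at 4.15 in quiescent and 3.39 in activated NSPCs for Epha1 and 3.89 and 5.19 for Epha8. The medians over marked members were 31.0 and 28.8.

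The widest H3K4me3 peaks at member promoters in the quiescent library were those of Sema6a, Epha5, Sema6d, Nrp1 and Plxnb1. In the activated library the peak of Sema4b, at 4144 bp, was wider than those of Nrp1, Epha5 and Plxnb1. At Sema6a, a transmembrane semaphorin, the peak spanned 6181 bp in quiescent and 5651 bp in activated NSPCs. At Epha5 it spanned 5655 bp and 3926 bp, at Sema6d 5424 bp and 4688 bp, at Nrp1 5179 bp and 4003 bp, and at Plxnb1 4841 bp and 3890 bp. In each of these 5 genes the quiescent peak was the wider, which a choice by quiescent width favours. Some other members went the other way, such as Plxnd1 with 2232 bp in quiescent and 3535 bp in activated NSPCs. Over the 45 members marked in both, the median width was 2213 bp in quiescent and 1849 bp in activated NSPCs, and over all genes marked in both it was 2195 bp and 2066 bp.

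**Figure D2:**
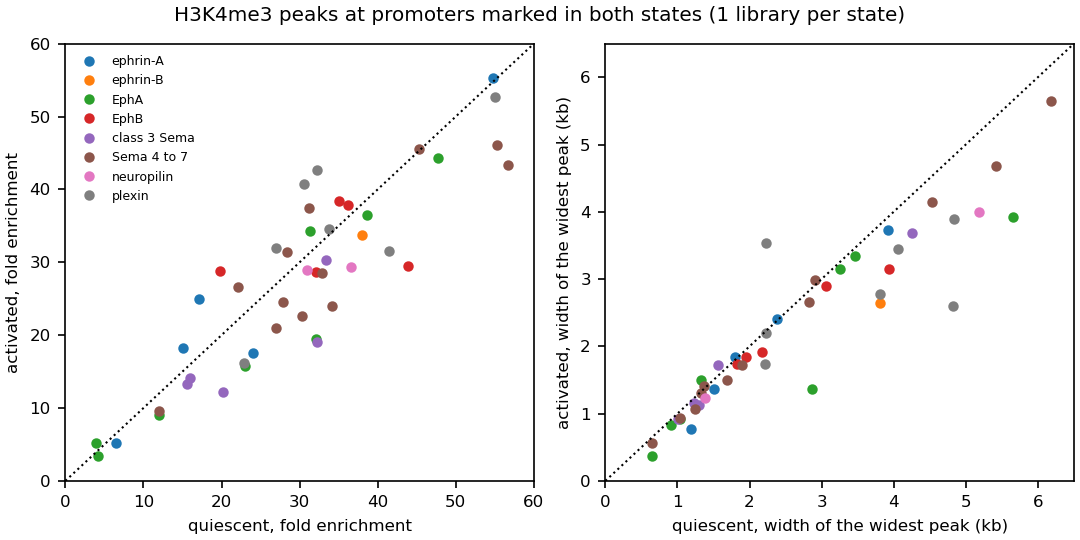
Fold enrichment (left) and width of the widest peak in kb (right) of H3K4me3 at the promoters of the 45 members marked in both states, quiescent on the horizontal and activated on the vertical axis, 1 point per gene, coloured by family. The dotted lines mark equal values, and most of the points in the width plot lie below them, with median widths of 2213 bp and 1849 bp.

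Beyond promoters, open sites were made by joining overlapping or abutting peaks of the 4 quiescent and activated lists. The windows of the members held 408 such sites, and 135 of them had a peak in 1 library alone and were left unclassed. Of the other 273, 208 (76.2%, interval 70.7% to 81.1%) were open in some quiescent and some activated library and are called shared (77.8% of all sites in gene windows). A further 32 sites (11.7%, interval 8.16% to 16.1%) had a peak in both quiescent libraries and in neither activated one and are called quiescent-specific (13.1% of all). The remaining 33 sites (12.1%, interval 8.47% to 16.6%) had the reverse pattern and are called activated-specific (9.06% of all). The interval of the members contains the share of all gene windows in each class. These classes rest on few libraries, and the counts under other settings below were made for member sites alone. With 1 quiescent library left out, 64 or 70 member sites were quiescent-specific, and without activated replicate 1 there were 49. With 1 activated library left out, 54 or 77 were activated-specific, and without quiescent replicate 1 there were 50. With a minimum −log10 q of 10 there were 118 shared, 12 quiescent-specific and 16 activated-specific sites. At that minimum 5 of the 32 quiescent-specific and 4 of the 33 activated-specific sites kept a peak in both libraries of their state. Most of the 12 and of the 16 are therefore other sites.

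Specific sites lay mostly in introns, as they did over all genes. Of the quiescent-specific sites 21 of 32 were intronic (62.9% of all), and 2 lay at a promoter of a member. Of the activated-specific sites 22 of 33 were intronic (53.1% of all) and 3 lay at a member promoter. Of the shared sites, 85 of 208 were intronic (30.6% of all) and 62 lay at a member promoter. With promoters of any gene counted, 100 of 208 shared sites (51.6% of all), 5 of 32 quiescent-specific (13.3% of all) and 5 of 33 activated-specific sites (22.3% of all) lay at one. H3K4me3 in both states covered 91 of 208 shared sites (50.2% of all shared sites), 3 of 32 quiescent-specific sites (5.45% of all) and 3 of 33 activated-specific sites (16.7% of all). In all, 32 members had a specific site of either kind and 14 had both kinds (32.1% and 5.92% of all genes). The members are longer than most genes, with a median of 39.9 kb against 17.6 kb and of 5 against 2 open sites per gene, so these counts are not compared with those of all genes. The 18 members without one include 3 of 5 ephrin-A ligands, 4 of 7 class 3 semaphorins and 3 of 7 plexins. The number of library peaks in the member windows was 251 and 264 in quiescent NSPCs, against 279 and 241 in activated and 539 and 535 in reactivated NSPCs. The quiescent and activated counts overlap, with means of 258 ± 9.19 and 260.0 ± 26.9 (SD, n = 2; exact permutation test, two-sided p = 1). The smallest p the design allows is 0.333, so this test could not have shown a difference. As a share of each list, the quiescent libraries had 0.581% and 0.553% and the activated libraries 0.630% and 0.654%, which do not overlap (exact permutation test, two-sided p = 0.333).

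**Figure D3:**
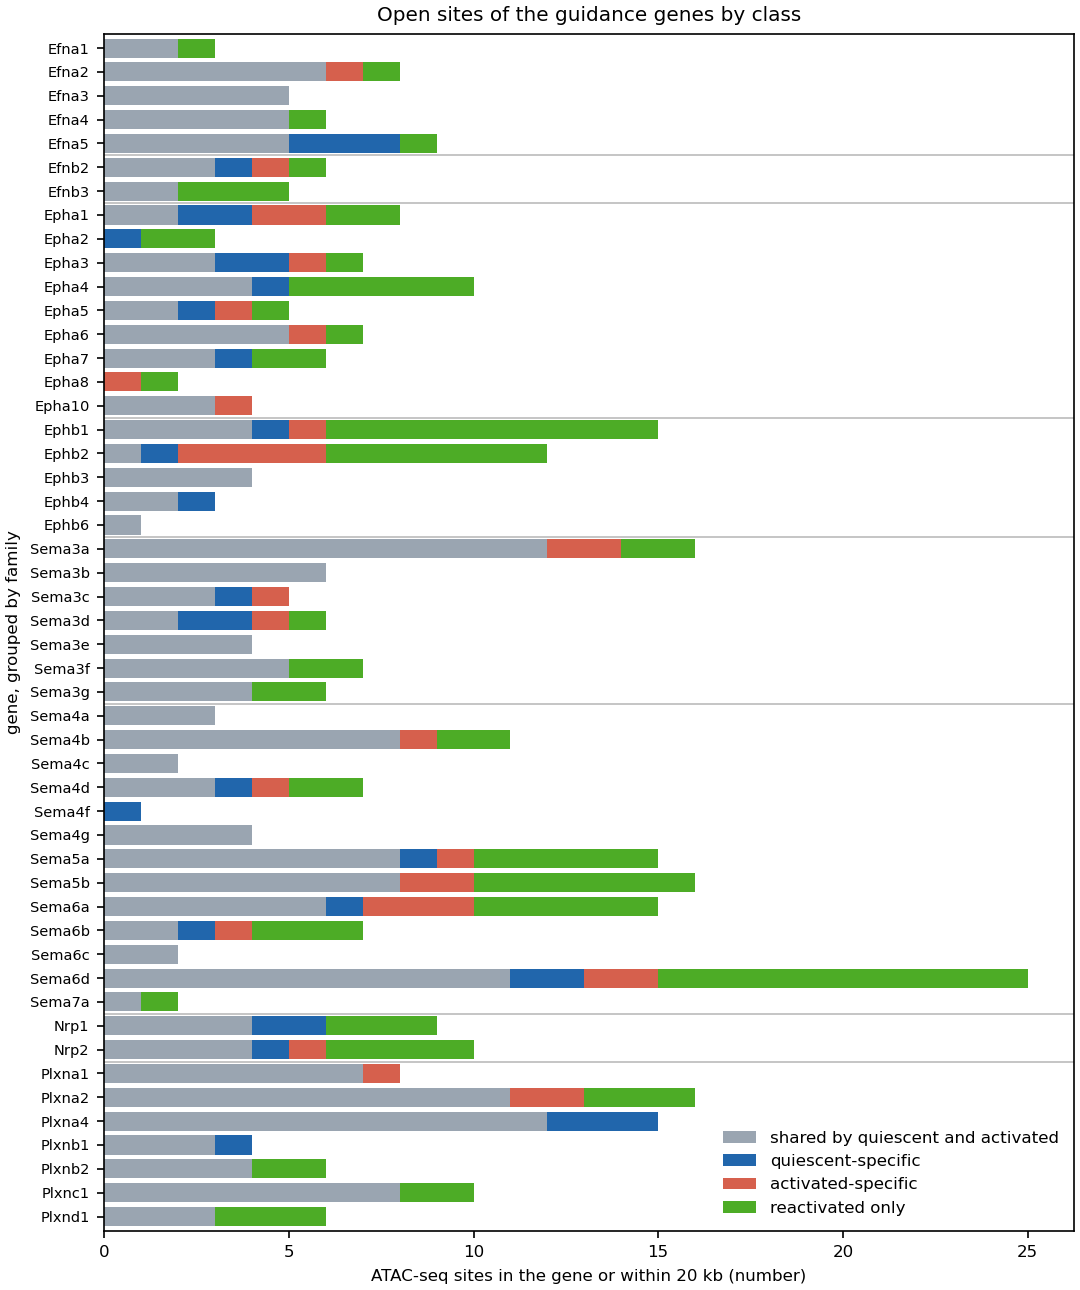
Number of ATAC-seq sites in the body or within 20 kb of each member, stacked by class: shared between quiescent and activated NSPCs, quiescent-specific, activated-specific, and open in reactivated NSPCs alone, with lines between families. Sema6d has the most sites open in reactivated NSPCs alone (10), Ephb2 the most activated-specific sites (4), and Plxna4 and Efna5 the most quiescent-specific sites (3 each).

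In number, not per length, quiescent-specific sites were most frequent at Plxna4, a class A plexin that transmits class 3 and class 6 semaphorin signals, and at Efna5, with 3 each. The sites of Plxna4 lay 3.34 kb upstream of its 5′ end and 29.9 and 361 kb downstream of it. Their fold enrichments were 3.49 and 3.20, 5.00 and 2.45, and 3.42 and 2.29 in quiescent replicates 1 and 2. The sites of Efna5 were all intronic, 64.6, 223 and 267 kb downstream of the 5′ end. The first of them had 6.84 and 3.97 in quiescent replicates 1 and 2, no activated peak, and 3.99 in reactivated replicate 2 alone. None of the 3 Efna5 sites had a peak in both reactivated libraries. Epha1, Epha3, Nrp1, Sema3d and Sema6d had 2 quiescent-specific sites each.

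By mean percentile, an intron of Nrp1 held the strongest quiescent-specific site, 70.6 kb from the 5′ end at chr8:128428907-128429533, with 6.05 and 4.97 in quiescent NSPCs and, after reactivation, 7.34 and 6.65. The Efna5 site above, at chr17:62816516-62816888, came next. It was followed by an intron of Epha3, an ephrin-A receptor, 206 kb from the 5′ end, with 5.78 and 3.82 in quiescent NSPCs and, after reactivation, 4.54 and 4.12. An intron of Nrp2, a neuropilin that prefers Sema3f, had 4.72 and 3.97 in quiescent NSPCs and, after reactivation, 3.87 and 4.79. An intron of Sema3d, 27.0 kb from the 5′ end, had 3.94 and 4.66 in quiescent replicates and 5.99 in reactivated replicate 2 alone. Every one of these 5 sites lacked a peak in both activated libraries, and 3 of them had one in both reactivated libraries.

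Activated-specific sites were most numerous at Ephb2, an ephrin-B receptor, with 4, and at Sema6a, with 3. The Ephb2 sites, 19.1, 146, 184 and 204 kb downstream of the 5′ end, had activated values between 2.52 and 4.17. At 146 kb the values were 3.05 and 3.20 in activated NSPCs and, after reactivation, 13.4 and 10.9. Each of the 4 had a peak in both reactivated libraries. Epha1, Plxna2, Sema3a, Sema5b and Sema6d had 2 activated-specific sites each.

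Sema6d held the strongest activated-specific site in an intron. The gene encodes a transmembrane semaphorin that binds plexin A proteins, and the site lies 280 kb from the 5′ end at chr2:124369315-124369718. It had 9.15 and 4.99 in activated NSPCs and, after reactivation, 9.75 and 9.16. A Plxna2 intron at chr1:194682079-194682323, 64.0 kb from the 5′ end, had 5.72 and 5.13 in activated NSPCs and, after reactivation, 8.76 and 6.62. An intron of Sema5a had 6.82 and 4.28 in activated NSPCs and 4.67 in reactivated replicate 1 alone. An intron of Sema5b, 23.6 kb from the 5′ end, had 4.90 and 5.13 in activated NSPCs and, after reactivation, 8.53 and 9.96. An exon of Sema6a, 64.7 kb from the 5′ end, had 4.24 and 4.42 in activated NSPCs and, after reactivation, 5.56 and 3.77. None of these 5 had a quiescent peak, and 4 had a peak in both reactivated libraries.

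The 300 bases centred on the highest summit of 2 specific sites of each class are printed, read from GRCm38.p6 on the plus strand, to show the sequences behind the state-specific calls. Capitals mark matches, on either strand, to an E-box (CAGCTG, a site of proneural bHLH factors), an AP-1 site (TGANTCA), the core of an NFI site (TTGGC) or a SOX core (AACAAT).
Nrp1 intron, quiescent-specific, chr8:128429017-128429316: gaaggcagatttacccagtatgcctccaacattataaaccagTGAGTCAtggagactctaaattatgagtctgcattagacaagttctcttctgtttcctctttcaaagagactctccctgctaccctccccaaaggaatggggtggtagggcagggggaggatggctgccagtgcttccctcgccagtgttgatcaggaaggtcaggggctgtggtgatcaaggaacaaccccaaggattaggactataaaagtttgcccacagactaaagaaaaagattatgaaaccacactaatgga
Efna5 intron, quiescent-specific, chr17:62816583-62816882: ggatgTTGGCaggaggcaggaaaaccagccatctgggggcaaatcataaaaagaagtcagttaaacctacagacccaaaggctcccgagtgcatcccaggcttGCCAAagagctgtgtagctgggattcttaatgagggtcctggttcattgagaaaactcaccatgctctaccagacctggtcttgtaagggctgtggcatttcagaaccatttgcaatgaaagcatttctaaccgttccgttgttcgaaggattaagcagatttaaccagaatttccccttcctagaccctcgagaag
Sema6d intron, activated-specific, chr2:124369332-124369631: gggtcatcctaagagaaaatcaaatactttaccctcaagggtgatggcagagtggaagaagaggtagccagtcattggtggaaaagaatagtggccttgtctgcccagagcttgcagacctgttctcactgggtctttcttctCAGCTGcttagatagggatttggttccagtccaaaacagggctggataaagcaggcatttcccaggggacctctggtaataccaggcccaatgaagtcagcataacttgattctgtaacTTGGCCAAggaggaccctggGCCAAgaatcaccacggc
Plxna2 intron, activated-specific, chr1:194682073-194682372: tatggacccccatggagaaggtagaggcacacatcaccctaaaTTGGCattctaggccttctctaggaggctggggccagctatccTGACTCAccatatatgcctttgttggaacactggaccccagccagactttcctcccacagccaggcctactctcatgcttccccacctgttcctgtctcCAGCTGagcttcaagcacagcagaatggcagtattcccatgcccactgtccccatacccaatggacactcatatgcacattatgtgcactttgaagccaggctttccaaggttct

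The E-box letters were in both activated-specific windows and in neither quiescent-specific window printed. Over the classes, they were in 13 of 33 activated-specific member sites (39.4%, and 48.7% of all activated-specific sites) and in 4 of 32 quiescent-specific member sites (12.5%, and 19.9% of all). The NFI core was in 19 of 32 quiescent-specific (59.4%, and 63.8% of all) and 17 of 33 activated-specific member sites (51.5%, and 55.9% of all). The AP-1 letters were in 3 of 32 quiescent-specific (9.28% of all) and 6 of 33 activated-specific member sites (14.8% of all), and the SOX core in 2 of 32 (10.4% of all) and 4 of 33 (15.0% of all). The full palindromic NFI site was in 1 of 33 activated-specific member sites (0.308% of all) and in 0 of 32 quiescent-specific ones (0.0639% of all). A match is a description of the letters and not of a bound factor.

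Reactivated NSPCs had a peak in both libraries at most activated-specific sites and at fewer quiescent-specific sites. This held for 27 of 33 activated-specific member sites (81.8%, interval 64.5% to 93.0%, and 92.5% of all such sites) and for 14 of 32 quiescent-specific member sites (43.8%, interval 26.4% to 62.3%, and 56.8% of all). Of shared sites, 203 of 208 had one (97.6%, and 96.5% of all). No peak in either reactivated library was found at 3 of 208 shared sites (1.41% of all) and at 8 of 32 quiescent-specific ones (25.2% of all), among them both sites of Epha1, and at 0 of 33 activated-specific ones (1.79% of all). With lists of equal length, the shares were 50% of activated-specific and 18.2% of quiescent-specific member sites. That setting shortens all 6 lists and so also changes which sites are in each class (17 of 34 and 4 of 22 sites). With a peak in at least 1 reactivated library as the criterion, they were 100% and 75.0%. Without reactivated replicate 1 the quiescent-specific share was 65.6%. In these other settings the shares over all sites were not computed. The difference between the classes was not tested, since sites are not replicates.

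**Figure D4:**
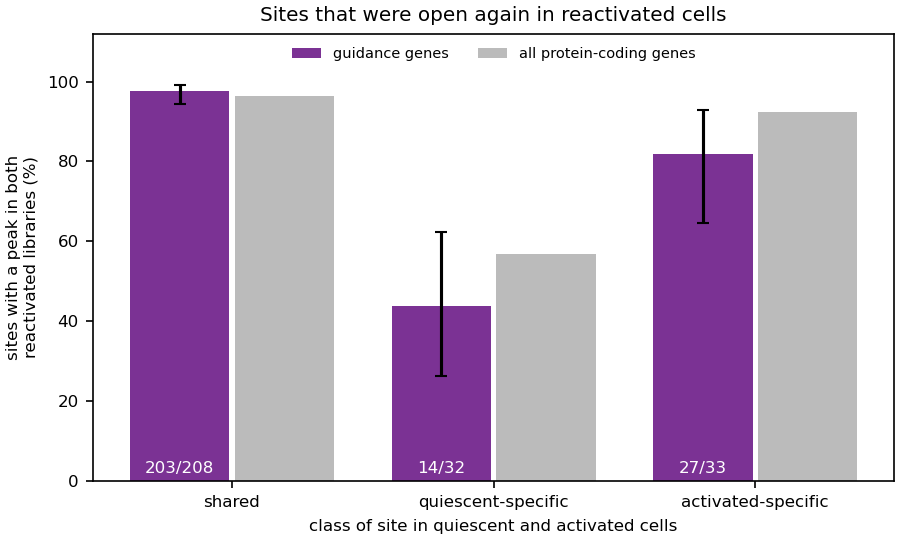
Share of sites with a peak in both reactivated libraries, in percent, for the sites of the guidance genes (purple, with exact 95% intervals and counts) and of all protein-coding genes (grey), by the class of the site. The quiescent-specific bar of the guidance genes stands at 43.8% and the activated-specific bar at 81.8%.

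Sites with a peak in both reactivated libraries and in none of the other lists were frequent in lists of full length and few in lists of equal length. They made up 96 of 419 reactivated sites in the member windows (22.9%, and 22.1% of all), in 34 of 50 members (44.5% of all genes, which are shorter than most members), and 22 of the 96 lay at a promoter of any gene (26.3% of all). Sema6d had 10, Ephb1 9, and Sema5b and Ephb2 6 each, in windows of 618, 473, 164 and 228 kb. Per 100 kb of window these are 1.62, 1.90, 3.67 and 2.63 sites, and the short Efnb3 had the most, 6.51. The strongest were 3 sites of Ephb1, an ephrin-B receptor. At 416 kb downstream of its 5′ end, where the site is also at a promoter of 9630041A04Rik, the reactivated values were 7.83 and 8.25. In introns at 173 and 105 kb they were 6.00 and 7.05, and 7.51 and 5.45. With all lists at the length of the shortest, 5 such member sites were left, and without 1 reactivated library there were 174 or 177. Sites of all genes were not counted in these settings.

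The strength of open sites was compared where all 6 lists had a peak, which held for 135 of 408 member sites, in 45 of 50 members. Sites absent from a state are therefore not part of this comparison. Values were log2 fold enrichments, quantile-scaled over 22698 sites and tested with limma, with p-values adjusted over all of these by Benjamini-Hochberg. The 3 contrasts share libraries and are not independent of each other. Between activated and quiescent NSPCs, 9 member sites were higher in activated NSPCs (5.33% of all sites tested) and 6 were lower (4.29% of all). The median log2 difference was 0.015 over member sites and −0.017 over all sites, and 37 of 135 member sites had an unadjusted p under 0.05 (23.7% of all). Of the 9 higher sites 8 were intronic (38.7% of all higher sites), and of the 6 lower sites 2 were (42.3% of all lower sites), where 45 of the 135 sites tested were intronic (22% of all).

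**Figure D5:**
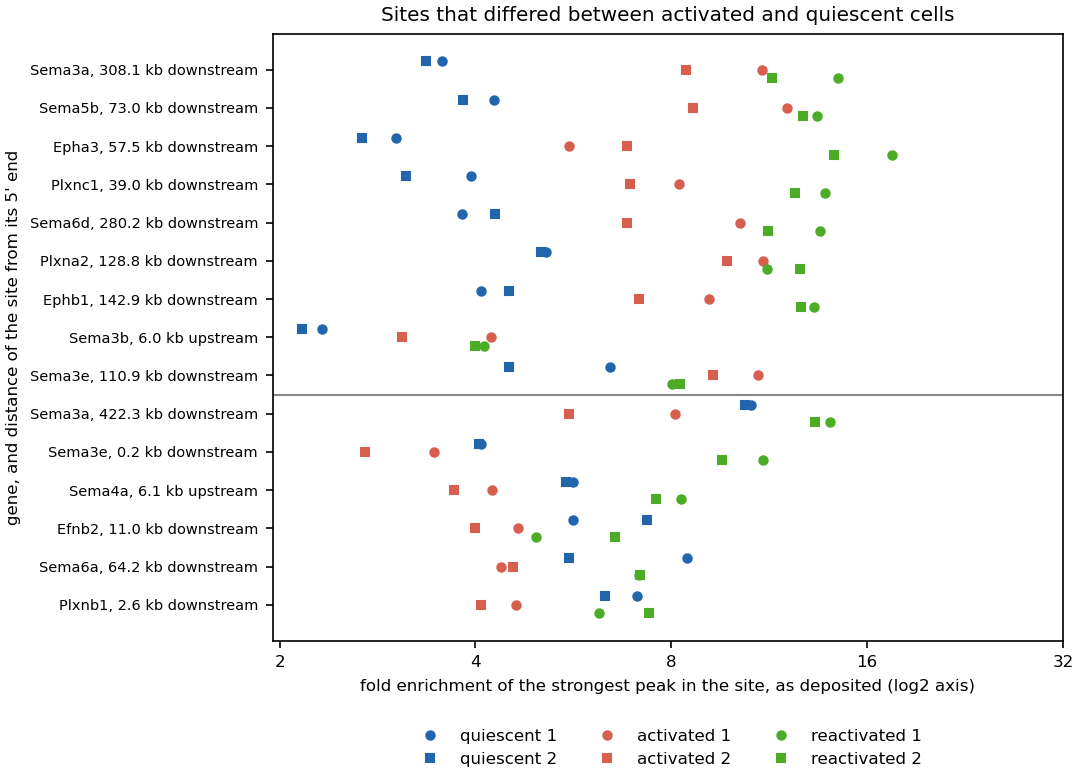
Fold enrichment, as deposited, on a log2 axis, of the 15 member sites that differed between activated and quiescent NSPCs in limma, 1 row per site with its distance from the 5′ end of the gene, circles for replicate 1 and squares for replicate 2. Above the grey line both activated points lie to the right of both quiescent points, and below it they lie to the left.

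The largest difference was in an intron of Sema3a, a repellent of axons, 308 kb from the 5′ end at chr5:13433336-13433690. Its fold enrichment was 3.55 and 3.36 in quiescent NSPCs, against 11.0 and 8.41 in activated and 14.4 and 11.4 in reactivated NSPCs. The 2 quiescent values lie well below the other 4, and the scaled log2 difference was 1.25 ± 0.19 (SE, limma adjusted p = 0.00565). In an intron of Sema5b, a membrane-bound semaphorin, 73.0 kb from the 5′ end at chr16:35613791-35614512, the values were 4.27 and 3.82 in quiescent NSPCs, against 12.0 and 8.62 in activated and 13.4 and 12.7 in reactivated NSPCs (log2 difference 1.09 ± 0.17, adjusted p = 0.00556). These 2 were the sites called in all 6 fits that left out 1 library and under all 6 other settings.

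An intron of Epha3, at chr16:63806430-63806838, had 3.02 and 2.67 in quiescent NSPCs, against 5.57 and 6.85 in activated and 17.5 and 14.2 in reactivated NSPCs. The 3 states do not overlap there, with a log2 difference of 0.98 ± 0.22 between activated and quiescent NSPCs (adjusted p = 0.0239). In a Plxnc1 intron, 39.0 kb from the 5′ end, the values were 3.94 and 3.13 in quiescent NSPCs, against 8.22 and 6.91 in activated and 13.8 and 12.4 in reactivated NSPCs (log2 difference 0.88 ± 0.17, adjusted p = 0.0136). The Sema6d site 280 kb from the 5′ end, at chr2:124369979-124370432, lies beside the activated-specific site printed above and had 3.81 and 4.28 in quiescent NSPCs, against 10.2 and 6.85 in activated and 13.5 and 11.3 in reactivated NSPCs (log2 difference 0.82 ± 0.20, adjusted p = 0.0350). An intron of Plxna2, 129 kb from the 5′ end, had 5.13 and 5.04 in quiescent NSPCs, against 11.1 and 9.75 in activated and 11.2 and 12.6 in reactivated NSPCs (log2 difference 0.78 ± 0.16, adjusted p = 0.0154). The other 3 higher sites had log2 differences of 0.65 to 0.68. They lay in introns of Ephb1 and Sema3e, and 6.00 kb upstream of Sema3b at a promoter of its neighbour Gnai2. The Ephb1 site and the Sema3e intron were called in none of the 6 fits without 1 library.

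Lower in activated NSPCs was first of all a site in Plxnb1, the receptor of Sema4d, 2.63 kb downstream of its 5′ end and also at the start of the antisense gene Gm7628, at chr9:109097781-109098265. It had 7.10 and 6.33 in quiescent NSPCs, against 4.62 and 4.09 in activated and 6.19 and 7.40 in reactivated NSPCs (log2 difference −0.83 ± 0.16, adjusted p = 0.0127). An intron of Sema6a, 64.2 kb from the 5′ end and next to the activated-specific exon site above, had 8.46 and 5.58 in quiescent NSPCs, against 4.38 and 4.56 in activated and 7.14 and 7.15 in reactivated NSPCs (log2 difference −0.81 ± 0.20, adjusted p = 0.0317). This call was kept in 1 of the 6 fits without 1 library, with adjusted p up to 0.168. An intron of Efnb2 had 5.65 and 7.34 in quiescent NSPCs, against 4.64 and 3.99 in activated and 4.96 and 6.56 in reactivated NSPCs (log2 difference −0.77 ± 0.19, adjusted p = 0.0343). The promoter of Sema3e, with the values given above, differed by −0.74 ± 0.18 (adjusted p = 0.0348). It was the single member promoter among the 15 sites, while the intron of the same gene moved the other way. A site 6.14 kb upstream of Sema4a had 5.65 and 5.50 in quiescent NSPCs, against 4.24 and 3.71 in activated and 8.27 and 7.58 in reactivated NSPCs (log2 difference −0.74 ± 0.16, adjusted p = 0.0196). The last lower site lay in Sema3a near Gm42675, with a log2 difference of −0.73.

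None of the 15 directions turned under any setting tried, but the calls did change. Besides the Sema3a and Sema5b introns called in all 6 fits without 1 library, and the 2 sites called in none, 4 sites were called in 3 of these fits, 3 sites in 2, and 4 sites (Sema6a, Efnb2, the Sema3e promoter and the site near Sema3b) in 1. Over all member sites tested, without quiescent replicate 1, 3 sites were called higher and 1 lower, without quiescent replicate 2, 5 and 1, without activated replicate 2, 3 and 0, and without either reactivated library 6 and 3. Over all sites tested, fewer were called in each of these fits too. Without scaling, the median log2 difference over all sites was 0.15. In that setting 16 member sites were called higher and 0 lower (2185 and 429 of 22698 sites tested). Not all of these higher calls are among the 9: 2 of the 3 without quiescent replicate 1 are, 2 of the 5 without quiescent replicate 2, and 8 of the 16 without scaling.

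The 300 bases around the summit of the strongest higher and lower sites are printed in the same way, with the same motifs in capitals, because these sites carry the largest differences in strength.
Sema3a site, higher in activated NSPCs, chr5:13433319-13433618: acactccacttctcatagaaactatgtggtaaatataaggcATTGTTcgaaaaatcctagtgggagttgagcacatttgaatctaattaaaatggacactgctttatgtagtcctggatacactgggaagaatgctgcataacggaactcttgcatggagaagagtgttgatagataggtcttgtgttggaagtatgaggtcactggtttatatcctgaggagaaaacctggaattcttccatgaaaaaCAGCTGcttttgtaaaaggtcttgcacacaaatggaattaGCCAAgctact
Sema5b site, higher in activated NSPCs, chr16:35614114-35614413: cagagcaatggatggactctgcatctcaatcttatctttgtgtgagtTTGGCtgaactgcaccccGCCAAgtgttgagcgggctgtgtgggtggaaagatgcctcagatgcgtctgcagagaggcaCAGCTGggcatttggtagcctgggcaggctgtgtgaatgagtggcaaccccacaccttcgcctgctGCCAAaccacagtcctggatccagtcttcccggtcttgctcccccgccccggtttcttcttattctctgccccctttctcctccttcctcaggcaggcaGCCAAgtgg
Plxnb1 site, higher in quiescent NSPCs, chr9:109097887-109098186: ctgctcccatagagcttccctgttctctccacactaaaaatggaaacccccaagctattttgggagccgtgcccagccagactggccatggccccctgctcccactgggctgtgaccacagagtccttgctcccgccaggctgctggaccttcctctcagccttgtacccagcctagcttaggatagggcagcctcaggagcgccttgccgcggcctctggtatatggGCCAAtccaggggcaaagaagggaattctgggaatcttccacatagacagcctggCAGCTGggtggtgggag

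The Sema3a and Sema5b windows each held 1 E-box, and so did the Plxnb1 window, which was lower in activated NSPCs. The Sema5b window held 4 NFI cores. Among all shared sites of the members, 111 of 208 held the NFI core (53.4%, and 54.9% of all shared sites).

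Against activated NSPCs, reactivated NSPCs had 7 stronger member sites (6.95% of all sites tested) and 12 weaker ones (6.23% of all). Against quiescent NSPCs they had 15 stronger (11.6% of all) and 22 weaker ones (12.2% of all). The 7 and the 15 stronger sites were also called without scaling, whereas 0 of the 12 and 0 of the 22 weaker ones were, and of these only 8 and 12 kept the sign. The unscaled fold enrichment of reactivated NSPCs was higher at most sites, with a median log2 difference of 0.55 from activated and 0.73 from quiescent NSPCs over all sites. Without any one of activated replicate 2, reactivated replicate 1 or reactivated replicate 2, 0 member sites were called between reactivated and activated NSPCs in limma in either direction, with 29, 22 and 31 at an unadjusted p under 0.05 (23.2%, 20.9% and 23.2% of all sites tested). The same fits also called no site in either direction over all sites tested. Without reactivated replicate 1, far fewer sites were called against quiescent NSPCs, at the members and over all sites tested.

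The strongest rise from activated to reactivated NSPCs was at the Sema3e promoter, where both reactivated values lie above the other 4 (log2 difference 1.19 ± 0.18, SE, limma adjusted p = 0.0118). An intron of Plxna2, 190 kb from the 5′ end, had 4.08 and 3.59 in quiescent, 3.85 in both activated and 13.4 and 10.5 in reactivated libraries, a log2 difference of 1.03 ± 0.20 from activated NSPCs (adjusted p = 0.0166). An intron of Ephb1, 383 kb from the 5′ end, had 4.60 and 3.59 in quiescent NSPCs, against 3.98 and 3.14 in activated and 9.21 and 10.8 in reactivated NSPCs (log2 difference 0.87 ± 0.18). At these 3 sites the quiescent and activated values are close to each other or lower in activated NSPCs, and the reactivated ones stand apart. The Epha3 intron was higher in reactivated than in quiescent NSPCs by 1.81 ± 0.22 on the log2 scale (adjusted p = 0.00222), the largest such difference among the members. Among the weaker sites, the largest difference from quiescent NSPCs was at an exon of Efnb2, with 5.38 and 6.00 in quiescent NSPCs, against 6.02 and 4.73 in activated and 4.99 and 4.45 in reactivated NSPCs (log2 difference −1.03 ± 0.17, adjusted p = 0.00480). The promoter site of Sema6a at its 5′ end had 8.09 and 8.47 in quiescent libraries, 8.63 and 7.98 in activated and 7.38 and 7.44 in reactivated ones (−0.97 ± 0.16, adjusted p = 0.00468), while at another Sema6a transcript start, 35.1 kb downstream of the 5′ end, the reactivated libraries had 8.30 and 7.55, activated replicate 1 had 4.24 and the others had no peak. Both reactivated values lie below the other 4 at this Sema6a site, and at the Efnb2 exon they overlap with the activated ones. Without scaling the differences were −0.27 at the Efnb2 exon and −0.16 at the Sema6a site, and neither was called (adjusted p = 0.250 and 0.460).

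Genes that work with these families were counted in the same way, without a test. Of 47 guidance partners, among them cytoplasmic effectors such as Tiam1, Nck1 and Fyn, the collapsin response mediators, the Slit and netrin ligands and their receptors, 42 had a promoter peak in both quiescent libraries (56.9% of all genes), 41 in both activated (57.3%) and 46 in both reactivated libraries (66.4%). H3K4me3 marked 45 of their promoters in quiescent NSPCs (62.3% of all genes) and 44 in activated NSPCs (61.1%). Their windows held 200 shared, 44 quiescent-specific (16.2%) and 28 activated-specific sites (10.3%), where those of the members held 32 (11.7%) and 33 (12.1%) and those of all genes 13.1% and 9.06%. Slit3, a repellent ligand of Robo receptors, had a quiescent-specific promoter, with 2.83 and 3.21 in quiescent replicates 1 and 2 and 4.22 and 4.39 in the reactivated ones. Dpysl5, a collapsin response mediator, had an activated-specific promoter, with 3.32 and 2.99 in activated NSPCs and, after reactivation, 8.03 and 5.62. Slit1 had no promoter peak of either kind in any list.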

How the data were processed

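Peak lists of 6 ATAC-seq and 2 H3K4me3 libraries were used. The authors aligned reads to mm10, removed duplicates, reduced the reads of the reactivated libraries, and called peaks with MACS in each library. The submitters' processing notes name Trim Galore 0.4.0, Bowtie2 2.2.5, Picard 1.88, SAMtools 1.3.1 and HOMER. The deposited fold enrichment is a linear ratio of pileup to the background of that library, not scaled between libraries. The authors' −log10 p and −log10 q, deposited beside it, refer to 1 library each and rise with its depth. The score column, as deposited by the authors, was left out. Summits, deposited as offsets in bp from the peak start, centred the 300-base windows.

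The members, lists, tests and alternatives were chosen with earlier results of these data known. Autosomal peaks, an overlap of at least 1 bp, GENCODE M21 and GRCm38.p6 were used, with Python 3.11.15, pandas 2.3.3, NumPy 2.4.6, SciPy 1.17.1, pysam 0.24.0, matplotlib 3.10.9 and limma 3.58.1 in R 4.3.3. For a site, the highest fold enrichment of its peaks was taken. A difference in strength was called at an adjusted p under 0.05. Groups came from the sample labels. Named were members with a promoter peak missing from every list or specific to a state, those with the most specific sites (6 of each kind, and ties), the 5 highest specific sites of either class by mean percentile, member sites that differed between activated and quiescent NSPCs (the 10 largest in full), the 3 strongest sites of reactivated NSPCs alone, and members with H3K4me3 in 1 state or with the 5 widest peaks. Members shown for their family, and sites of the reactivated contrasts, were chosen after their values were seen. The site classes and the limma fit were tested on simulated data. With 22698 simulated sites, 79.0% of 100 sites changed by 1 on the log2 scale and 100% of 100 changed by 2 were recovered in the comparison of activated with quiescent NSPCs, with 8 false calls among 187. The simulated noise was normal and independent between libraries, with few changed sites and no batch or outlying library. It therefore checks the fit and does not measure recovery in the real lists. Input libraries were not analysed here. Alternatives were stricter, equal-length or single-library-less lists, other windows, promoters, merging, scalings and a replicate block.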

Additional observations from a re-analysis of the deposited data

How the results depend on the processing

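Promoter and H3K4me3 counts of the members stayed within 1.5 times under every alternative run except 1: with a minimum −log10 q of 10, 26 members had a quiescent promoter peak. That minimum also gave 118 shared, 12 quiescent-specific and 16 activated-specific member sites. Most of the 12 and of the 16 were other sites than those classed so in the full lists. Of them, 58.3% of the quiescent-specific and 100% of the activated-specific ones were open in reactivated NSPCs. With lists of equal length, 5 member sites were open in reactivated NSPCs alone, and 18.2% of quiescent-specific and 50% of activated-specific sites were open again. With a peak in 1 reactivated library as enough, these shares were 75% and 100%. In this section promoters, site classes and reopening were counted for members alone, without the shares over all genes or sites. The difference in peaks per library, 2.5 between activated and quiescent NSPCs, turned to −6.5 with 50 kb on each side. It was 21.5 with a minimum −log10 q of 10. With lists of equal length it was 27.5 (exact permutation test, two-sided p = 0.333, the smallest the design allows). For the strength of sites, no scaling gave 16 higher and 0 lower member sites in activated than quiescent NSPCs (2185 and 429 of 22698 sites tested). It gave 54 and 0 in reactivated than activated (11299 and 79 of all), and 97 and 0 in reactivated than quiescent (15026 and 97 of all). The mean in place of the highest fold enrichment gave 4 higher and 1 lower member sites in activated than quiescent NSPCs (554 and 374 of all). It gave 4 lower in reactivated than activated (600 of all) and 10 lower in reactivated than quiescent (1618 of all). The cause of these changes was not tested.

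With 1 library left out, quiescent-specific member sites ranged from 36 to 70, activated-specific from 45 to 77, and sites of reactivated NSPCs alone from 104 to 177. Reopening ranged from 34.4% to 65.6% of quiescent-specific and from 77.8% to 93.9% of activated-specific sites, and the difference in peaks per library from −16.5 to 21.5. Calls of strength ranged from 3 to 6 higher and 0 to 4 lower in activated than quiescent NSPCs, from 0 to 6 and 0 to 7 in reactivated than activated, and from 1 to 18 and 2 to 23 in reactivated than quiescent. Over all sites tested, the number of calls also fell in most of the fits without 1 library. A state left with 1 library was assumed to vary like the others.

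Neither the labels nor the study's methods say that a replicate number marks a shared batch across the 3 states, although its comparison by age used such a block. Deviations of same-numbered libraries correlated at 0.0091, 0.026 and −0.0074 over sites. With a replicate block the difference in peaks per library was 2.5. In activated than quiescent NSPCs, 8 higher and 6 lower member sites were called (1216 and 964 of 22698 sites tested). The Sema3e intron was lost (limma adjusted p = 0.0535). In reactivated than activated NSPCs the block gave 6 higher and 8 lower member sites (1532 and 1215 of all), against 7 and 12 without it. Of the 7 and 12, 5 and 8 were kept. In reactivated than quiescent NSPCs it gave 16 and 23 (2651 and 2603 of all).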
